A study of Mus musculus with 8 samples.

Results

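The TIM family (T cell immunoglobulin and mucin domain) was described by its 4 mouse genes Havcr2, Havcr1, Timd2 and Timd4 in CD4+CD25+ T cells of pregnant mice. These were taken as the rows of the value table whose platform annotation gives 1 gene symbol among the family members. All 4 were found, each with 1 probe set, among 6986 genes tested on 8 arrays. These 6986 genes are only a part of the mouse genes, and 1646 of them lie on chromosome 11. Unless another setting is named, ranks, shares and adjusted p-values refer to these 6986 genes alone. A listed gene counts as measured only if it is one of the 6986. The 4 TIM genes lie on chromosome 11, whereas Il10, the mutated gene, lies on chromosome 1.

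The cells were purified by flow cytometry from uterine draining (para-aortic) lymph nodes of females at day 9.5 post coitus. The IL10-/- group held 4 arrays from Il10 mutant mice that had been backcrossed through the C57BL/6 colony and that drank water with oxytetracycline at 2 mg/ml, an antibiotic given against colitis. The IL10+/+ group held 4 arrays from C57BL/6 mice, for which no antibiotic is stated, so that antibiotic and genotype cannot be told apart. Each array carried RNA pooled from 2 to 4 mice, and every sample was labelled as Treg cells. The comparison asks what differs in the regulatory T cells of pregnancy when interleukin 10 is missing.

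TIM proteins are receptors at the cell surface with an immunoglobulin-like head on a mucin stalk, and several of them bind phosphatidylserine, the lipid that dying cells expose. TIM-3, the product of Havcr2, is a coinhibitory receptor of activated T cells that make interferon gamma, of exhausted T cells and of an activated subset of Treg, and it is also made by NK cells, dendritic cells and macrophages. TIM-1, the product of Havcr1, costimulates T cells, marks a population of regulatory B cells and is the kidney injury molecule of damaged tubules. TIM-2, the product of Timd2, is found in rodents and has been described as a receptor for H-ferritin and for semaphorin 4A. TIM-4, the product of Timd4, sits on macrophages and other antigen-presenting cells, tethers dying cells for uptake and binds TIM-1.

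The arrays correlated with each other at Pearson's r between 0.974 and 0.993 across genes, which are not independent replicates. IL10-/- replicate 2 and IL10+/+ replicate 4 stood apart with interquartile ranges of 2.15 and 2.17 log2 units, against 2.32 to 2.58 in the other arrays. In both of them the dimmest 25% of genes read high, by a median of 0.08 each relative to the gene's mean over all arrays. IL10+/+ replicate 2 had the widest interquartile range, 2.58. Il10 itself gave a signal in every array labelled IL10-/-, but no source used here says which part of the gene is mutated, and this probe set therefore checks no label. Of 13 Treg markers 4 were measured, and Ctla4 and Ikzf2 had means of 11.22 and 11.35 in IL10-/- and of 11.32 and 11.54 in IL10+/+. The other measured Treg markers were Ikzf4, at 9.12 in IL10-/- and 9.21 in IL10+/+, and Socs2, at 8.55 in IL10-/- and 7.99 in IL10+/+, and none of the 4 passed the test. Foxp3, Il2ra and Cd4 were not analysed here. In such pools, fewer cells of a type and less RNA per cell cannot be told apart.

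The upstream stretch of Havcr2 is shown because Havcr2 was the TIM gene with the widest separation between genotypes. It is the 250 bases before the RefSeq start of the gene at chr11:46454681-46454930 of GRCm38.p6, plus strand, written 5′ to 3′ with the single motif match in capitals.
Havcr2: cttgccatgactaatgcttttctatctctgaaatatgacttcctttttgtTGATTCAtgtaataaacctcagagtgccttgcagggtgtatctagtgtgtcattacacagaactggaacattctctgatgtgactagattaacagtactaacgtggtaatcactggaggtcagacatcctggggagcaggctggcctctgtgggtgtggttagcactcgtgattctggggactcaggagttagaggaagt
Both strands were searched for 5 motifs, and overlaps between matches were allowed. The capitals mark a match to TGANTCA, at bases -200 to -194 from the start. This is a loose form of the AP-1 motif, with any base (N) in the middle, where the match has T. The pattern is held by 6.75% of 32851 upstream windows of the same length. The letters of the T-box site TCACAC (in 12.3% of windows), of the NFIL3 site TTACNTAA (2.06%), of the STAT site TTCNNNGAA (7.02%) and of the NFAT core GGAAA (55.6%) are not in this window. A match is a run of letters and not a measured binding site.

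Havcr2 read higher in IL10-/- cells, but the difference did not pass the test over all genes. Its log2 values were 7.21, 7.00, 7.61 and 7.57 in IL10-/- replicates 1 to 4, against 6.49, 7.36, 6.10 and 5.98 in IL10+/+ replicates 1 to 4. All 4 IL10-/- arrays lay above the mean of IL10+/+, yet only replicates 3 and 4 lay above every IL10+/+ array, because IL10+/+ replicate 2 reached 7.36. The groups therefore overlapped. The means were 7.34 ± 0.30 in IL10-/- and 6.48 ± 0.62 in IL10+/+ (SD, n = 4 each).

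The difference for Havcr2 was 0.86 on the log2 scale (SE 0.27, 95% interval 0.26 to 1.46), or 1.82-fold (1.20 to 2.75). By limma it had an unadjusted p of 0.00901 and an adjusted p of 0.742 over the 6986 genes. The exact two-sided permutation test gave p = 0.0857, where 70 assignments of the arrays allow no value below 0.0286. In size the difference ranked 22 among the 6986 genes, and in unadjusted p it ranked 84.

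The IL10+/+ pools differed among themselves in Havcr2 more than the IL10-/- pools did. Their values spanned 1.37 log2 units, against 0.62 in IL10-/-. The SD in IL10+/+ was larger than that of 98.3% of all genes, and larger than that of 98.2% of the 501 genes nearest in level, Havcr2 included. In IL10-/- the SD of Havcr2 exceeded that of 88.5% of genes. Without IL10+/+ replicate 2, the other 3 arrays of that group averaged 6.19 ± 0.26 (SD, n = 3), all below the lowest IL10-/- value, and the difference was 1.15 (SE 0.18) or 2.22-fold, with adjusted p = 0.104 by limma. Leaving out that array thus raised the estimate and did not bring Havcr2 past the threshold. Within IL10+/+ Havcr2 fell in the order of replicates 2, 1, 3 and 4, and so did the interquartile ranges (2.58, 2.47, 2.32 and 2.17). In IL10-/- replicate 2 was lowest in both, while the order of the other arrays differed. After quantile normalization, which gives the arrays equal spread, the difference was 0.86 (SE 0.27, adjusted p = 0.667 by limma). The part of array spread in these values was not tested further.

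**Figure D1:**
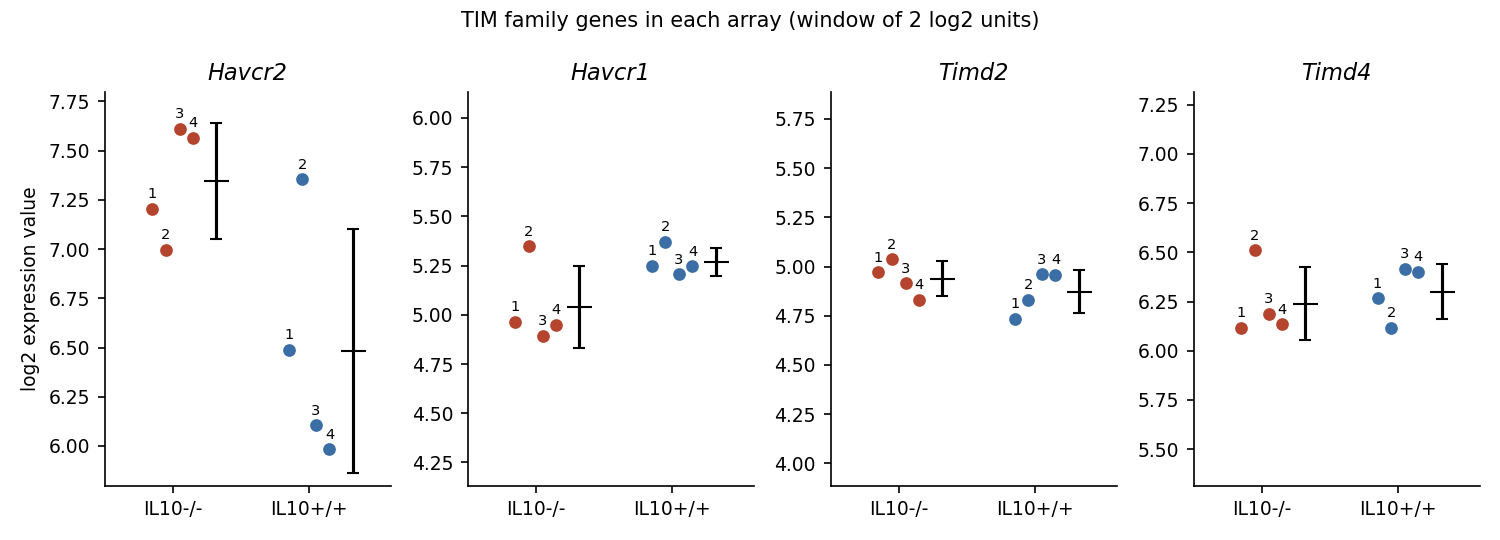
Log2 expression value of each TIM gene (vertical axis, a window of 2 log2 units in every panel) in the 4 IL10-/- arrays (red, left) and the 4 IL10+/+ arrays (blue, right). Digits are replicate numbers and bars are mean ± SD. Havcr2 reads 7.00 to 7.61 in IL10-/- and 5.98 to 7.36 in IL10+/+, where replicate 2 lies with the IL10-/- arrays, while the other 3 genes span at most 0.46 within a group.

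Havcr1 read slightly lower in IL10-/- cells, in the opposite direction to Havcr2, and did not pass the test. Its log2 values were 4.96, 5.35, 4.89 and 4.95 in IL10-/- replicates 1 to 4, against 5.25, 5.37, 5.21 and 5.25 in IL10+/+. In IL10-/- replicates 1, 3 and 4 it lay below every IL10+/+ array, whereas IL10-/- replicate 2, one of the arrays that stood apart, lay within the IL10+/+ range. The means were 5.04 ± 0.21 in IL10-/- and 5.27 ± 0.07 in IL10+/+ (SD, n = 4 each). This is a difference of -0.23 (SE 0.12, 95% interval -0.49 to 0.03) on the log2 scale. Limma gave an unadjusted p of 0.0783 and an adjusted p of 0.999, and the exact permutation test p = 0.114. With IL10-/- replicate 2 and IL10+/+ replicate 4 both left out, it was -0.34 (SE 0.10), with an adjusted p of 0.732 by limma.

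Timd2, the rodent family member, lay between 4.83 and 5.04 in IL10-/- and between 4.74 and 4.96 in IL10+/+. The array values were 4.97, 5.04, 4.92 and 4.83 in IL10-/- replicates 1 to 4, against 4.74, 4.83, 4.96 and 4.96 in IL10+/+. The groups overlapped over most of their range. The difference was 0.07 (SE 0.10, 95% interval -0.15 to 0.29), with an adjusted p of 0.999 by limma and an exact permutation p of 0.371.

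Timd4, the phosphatidylserine receptor of macrophages, also overlapped between genotypes. It read 6.12, 6.51, 6.19 and 6.13 in IL10-/- replicates 1 to 4, against 6.27, 6.12, 6.42 and 6.40 in IL10+/+. The highest value was again that of IL10-/- replicate 2, and the lowest values of both groups were 6.12. The difference was -0.06 (SE 0.12, 95% interval -0.33 to 0.20), with an adjusted p of 0.999 by limma and an exact permutation p of 0.629.

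Across the family, then, 0 of 4 genes passed the adjusted threshold of 0.05, which 2 of all 6986 genes (0.0286%) passed, both of them higher in IL10-/-. At an unadjusted p under 0.05 there was 1 of the 4, Havcr2, against 4.78% of all genes. Havcr1 joined it without IL10-/- replicate 2 (unadjusted p = 0.00662 by limma) or without both arrays that stood apart (0.00862), with array weights (0.0194), after quantile normalization (0.0291) and with median centring (0.0466). In 0 of 4 did the groups not overlap, against 2.92% of all genes (1.83% higher and 1.09% lower in IL10-/-). The differences ran from -0.23 for Havcr1 to 0.86 for Havcr2, with 2 positive and 2 negative, while the median over all genes was 0.0025.

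**Figure D2:**
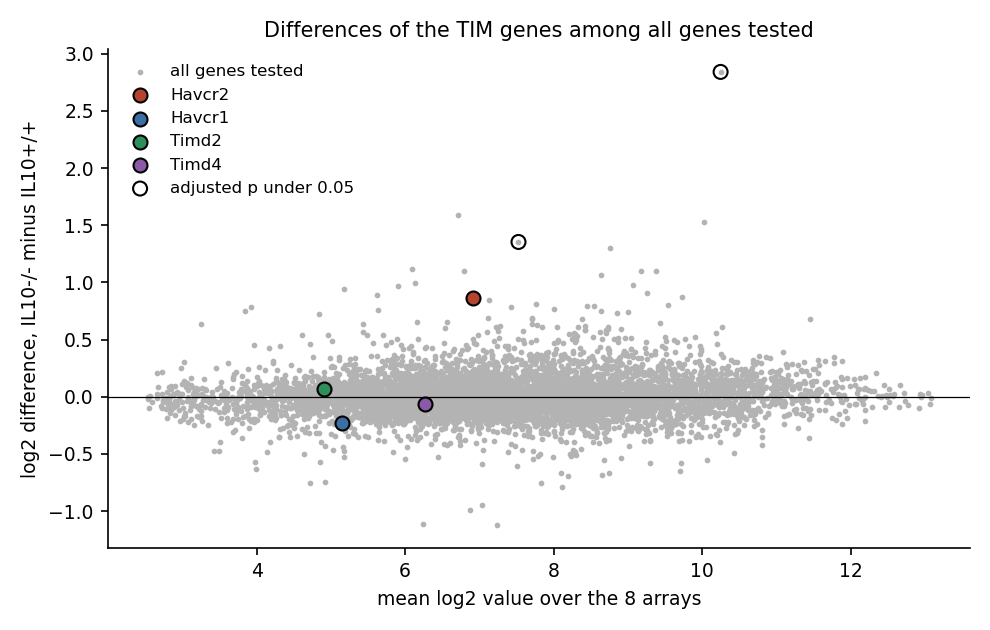
Log2 difference, IL10-/- minus IL10+/+ (vertical axis), against the mean log2 value over the 8 arrays (horizontal axis) for the 6986 genes tested (grey), with the 4 TIM genes in colour and the 2 genes at an adjusted p under 0.05 ringed. Havcr2 at 0.86 lies above the main body of genes, and Havcr1, Timd2 and Timd4 lie within it.

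The signals of Havcr1 and Timd2 were dim for this table. Their means over the 8 arrays stood at the 10.2 and 8.03 percentiles of all genes, that of Timd4 at the 29.2 and that of Havcr2 at the 46.5 percentile. Probe sets differ in brightness, so these positions give no order of expression between the genes, and no detection call was used. Expression in these cells is therefore not shown for any of the 4 genes, Havcr2 included. Havcr1, Timd2 and Timd4 all had their highest IL10-/- value in replicate 2, where dim genes read high as a whole, while Havcr2 had its lowest there. The part of that array's narrower spread in these values was not tested beyond the fits without it and after quantile normalization, in which each of the 4 genes kept its direction.

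Over the 8 arrays Havcr2 and Timd4 varied in opposite directions (Pearson's r = -0.68, and -0.77 after each group mean was taken off). Timd4 and Timd2 varied together (0.54, and 0.69 with group means off), as did Timd4 and Havcr1 (0.54 both ways). The 8 points share their arrays, including the 2 with narrow spread, so these coefficients are a description without a test.

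The 4 genes lie in a row on chromosome 11, in the order Havcr2, Timd2, Havcr1, Timd4, and 5 other tested genes lie between Havcr2 and Timd2. Together with the 10 tested genes before the cluster and the 10 after it, 25 neighbours were measured. By limma 0 of them passed the adjusted threshold and 0 reached an unadjusted p under 0.05, against 0.0286% and 4.78% of all genes. The differences of the neighbours ran from -0.20 to 0.26 with a median of 0.01, 13 positive and 12 negative. Med7, a Mediator subunit and the nearest tested gene before Havcr2, differed by 0.14 (SE 0.13), and Gm12169, the next tested gene after it, by 0.17 (SE 0.18). Sgcd, which encodes a sarcoglycan of muscle and follows Timd4, differed by -0.08 (SE 0.11). The difference read for Havcr2 was larger than that of each of the 25 tested neighbours. It too missed the adjusted threshold, and the difference between genes was not tested. Only 0.301% of all genes had a larger absolute difference than Havcr2, so the comparison says little about this stretch of the chromosome.

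**Figure D3:**
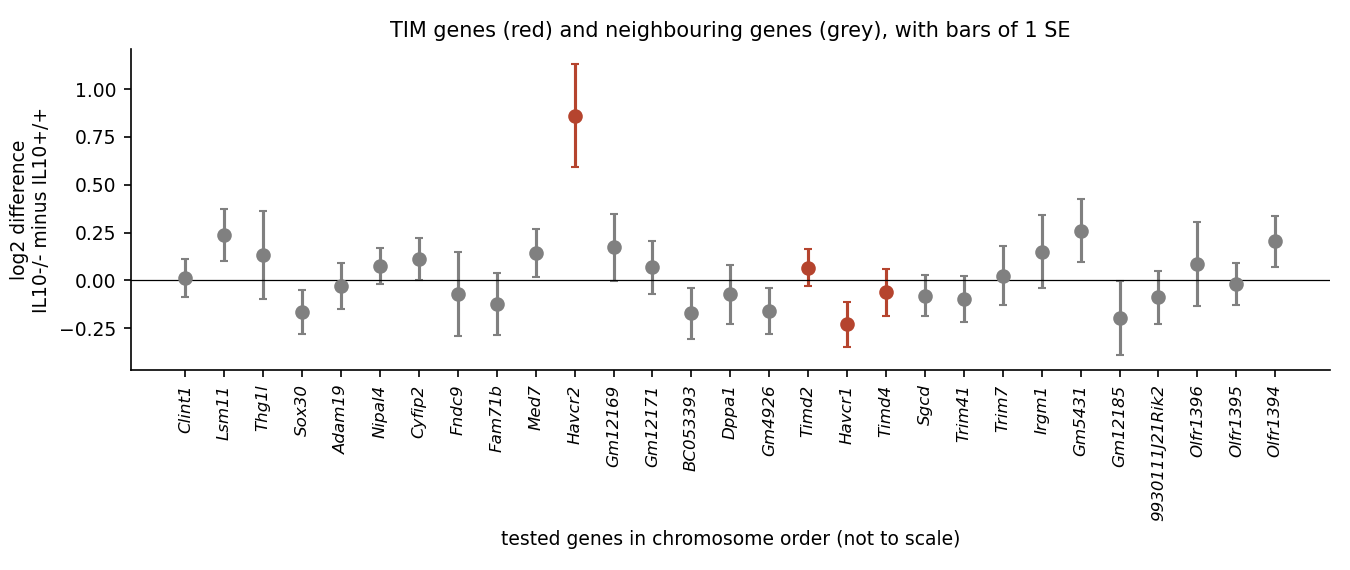
Log2 difference, IL10-/- minus IL10+/+, with bars of 1 SE (vertical axis) for the 4 TIM genes (red) and 25 neighbouring tested genes (grey) in their order along chromosome 11 (horizontal axis, not to scale). Havcr2 is at 0.86 and the grey genes lie between -0.20 and 0.26.

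Genes for TIM ligands were measured for 3 of 7. Lgals9 encodes galectin-9, a described ligand of TIM-3, and averaged 10.39 ± 0.28 in IL10-/- and 10.37 ± 0.39 in IL10+/+ (SD, n = 4 each), a difference of 0.02 (SE 0.20). Selp encodes P-selectin, a described ligand of TIM-1, and differed by -0.10 (SE 0.18), and the third was Timd4. None of the 3 passed the test.

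Kinases and adaptors of T cell receptor signalling, on which TIM-3 acts, were measured for 8 of 21, with 0 called, 2 positive, 6 negative and a median of -0.10. The smallest p-values in that list belonged to Fyn, a kinase that binds the TIM-3 tail, at -0.15 (SE 0.11), Pik3r1, a regulatory subunit of PI3 kinase, at -0.11 (SE 0.09), and Ptprc, the phosphatase CD45, at -0.09 (SE 0.09). Genes of phosphatidylserine recognition and uptake of dying cells were measured for 15 of 34, with 0 called, 8 positive, 7 negative and a median of 0.02. Among them the myeloid receptor gene Cd300lb differed by 0.12, the GTPase gene Rac2 by -0.18 and the integrin gene Itgb3 by -0.16. None of the genes in these lists reached an unadjusted p under 0.05.

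Other coinhibitory and costimulatory receptor genes differed by -0.15 to 0.13. Of 16 in the list 5 were measured, with 0 called, 2 positive, 3 negative and a median of -0.05. Icos, a costimulatory receptor, differed by 0.13 (SE 0.10), the checkpoint receptor gene Ctla4 by -0.11 (SE 0.13) and Pdcd1, which encodes PD-1, by -0.15 (SE 0.26). Whether Havcr2 differs from these genes was not tested.

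Regulators of Havcr2 and of effector T cells were measured for 11 of 18, with 0 called, 7 positive, 4 negative and a median of 0.04. Hif1a, the oxygen-sensing transcription factor, differed by 0.22 (SE 0.10), Ikzf2, which encodes Helios, by -0.19 (SE 0.11) and Prdm1, which encodes Blimp-1, by 0.20 (SE 0.17). Tbx21 and Nfil3, whose products are described activators of Havcr2, were added here after their values were seen. Tbx21 averaged 7.67 ± 0.14 in IL10-/- and 7.64 ± 0.19 in IL10+/+ (SD, n = 4 each), a difference of 0.03 (SE 0.12), and Nfil3 differed by 0.07 (SE 0.12).

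Effector genes that go with Havcr2 in T cells had the highest median difference of the related lists, 0.32, with 8 of the 11 measured of 14 positive, Havcr2 among them. By limma, 0 of the 11 passed the adjusted threshold, and 5 had an unadjusted p under 0.05, all higher in IL10-/-, where 3.19% of all genes were. These were Il10, Ifng, Havcr2, the granzyme gene Gzmb and the galectin gene Lgals3. The list was drawn up with results on several of its genes known, so its count is no independent evidence of a direction. The mutated gene Il10 differed by 1.06 (SE 0.22) and Ifng, which encodes interferon gamma, by 0.50 (SE 0.11), and for these 2 the groups did not overlap, against 1.83% of all genes higher without overlap. The cytotoxic genes Gzma and Prf1 differed by 0.12 (SE 0.44) and -0.01 (SE 0.14), and the chemokine gene Ccl5 by -0.16 (SE 0.11). Without IL10+/+ replicate 2, 7 of the 11 had an unadjusted p under 0.05, and without both arrays that stood apart 5 did. These counts were not planned, and each includes Havcr2 itself. The mean over the 11 genes was 8.76 in IL10+/+ replicate 2, against 8.03 to 8.10 in the other IL10+/+ arrays. In IL10-/- it ran from 8.55 to 8.87. Il10, Lgals1, Lgals3, Ccl3, Gzma, Prf1, Havcr2 and Gzmb were highest within IL10+/+ in that replicate 2, whereas Ifng, Ccl4 and Ccl5 were not. Leaving this array out raises the difference of each gene that was highest there by construction.

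**Figure D4:**
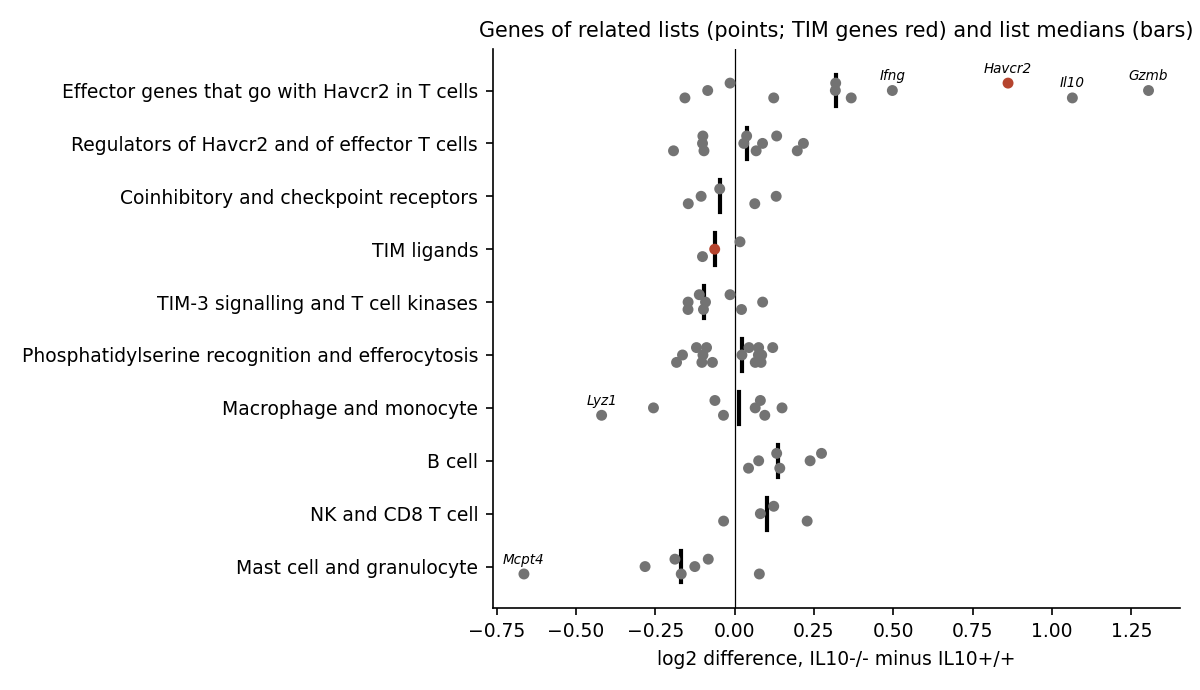
Log2 difference, IL10-/- minus IL10+/+ (horizontal axis), of each measured gene of the related lists and of marker lists for other cells (points, TIM genes in red) with the list median as a bar. Gzmb, Il10 and Havcr2 lie above 0.50, Ifng lies at 0.497, and the remaining related lists centre between -0.10 and 0.04.

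Gzmb, a granule protease of cytotoxic and activated regulatory T cells, shared with Havcr2 its values in replicate 2 of both groups. It read 9.78, 8.75, 9.50 and 9.60 in IL10-/- replicates 1 to 4, against 7.34, 9.88, 7.16 and 8.04 in IL10+/+. As with Havcr2, IL10+/+ replicate 2 was the high array of its group and IL10-/- replicate 2 the low array of its own. The order of the other arrays differed: IL10-/- replicate 1 was the highest of its group for Gzmb, and IL10+/+ replicate 4, the lowest for Havcr2, was second in its group for Gzmb. Pearson's r between Havcr2 and Gzmb was 0.88 over the 8 arrays and 0.80 after each group mean was taken off. For Il10 these were 0.89 and 0.77, for the galectin gene Lgals1 0.88 and 0.82, and for Socs2, a feedback inhibitor of cytokine signalling, 0.88 and 0.84. For Ifng they were 0.59 and -0.20, and Ifng did not share the high value of IL10+/+ replicate 2. Other genes ran against Havcr2, among them Tbx21 (-0.57 and -0.92), Ccl5 (-0.64 and -0.41) and Ccl4 (-0.38 and -0.34). Genes of other lists came about as close with group means off, among them Cd28 (0.29 and 0.84), Pdcd1 (0.43 and 0.81) and the B cell gene Blk (0.68 and 0.79). The genes of this paragraph were chosen after their values were seen. Coefficients with Havcr2 spread widely over the genes, and the reason was not tested. Over all other genes the 5 and 95 percentiles of r with Havcr2 were -0.69 and 0.67, and -0.82 and 0.72 with group means off, while 0.315% and 2.12% of genes had an r at or above that of Gzmb.

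Among genes at or above the median level, those whose values were most like Havcr2 over the 8 arrays were Atp6v1h (r = 0.97), a subunit of the vacuolar proton pump, Arrdc3 (0.96), an arrestin domain adaptor, Rps7 (0.95), a ribosomal protein, Rida (0.94), a deaminase of reactive imines, and Nus1 (0.94), a subunit of the enzyme that makes dolichol. Rida read 9.12, 8.47, 8.81 and 8.98 in IL10-/- replicates 1 to 4, against 7.94, 8.92, 7.67 and 7.69 in IL10+/+. Its difference of 0.79 (SE 0.26) did not pass the test (adjusted p = 0.777 by limma), and its high value in IL10+/+ replicate 2 is part of the likeness it was chosen for. With group means taken off, the closest were the splicing factor gene Srsf1 (0.98), Ginm1 (0.96), the nuclear import receptor gene Ipo5 (0.95), Atp6v1h (0.95) and Rcbtb1 (0.94). Srsf1 differed between the genotypes by 0.08 (SE 0.12), so that its likeness to Havcr2 lay within the groups.

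NK cells, myeloid cells and B cells can make TIM proteins, and their markers were set beside these results. Of 10 genes for NK and CD8 T cells 4 were measured, and their mean log2 level ran from 8.23 to 8.60 in IL10-/- and from 8.16 to 8.63 in IL10+/+. Its highest value was that of IL10+/+ replicate 2, where Gzma read 9.65, against 7.67 to 9.08 in IL10-/- and 7.47 to 7.91 in the other IL10+/+ arrays. Xcl1, a chemokine gene of the same list, had its lowest value of the 8 arrays there, 9.997, against 10.13 to 10.97 in IL10-/- and 10.57 to 11.03 in the other IL10+/+ arrays. Itga2 and Fcgr3, the other measured genes of the list, were highest within IL10+/+ in that array, as Gzma was, at 7.76 and 7.12. Both lay within their IL10-/- ranges of 7.57 to 7.84 and 7.06 to 7.23. Xcl1 thus ran against the rest of the measured list there. Of 24 macrophage and monocyte genes 8 were measured, at a mean level of 6.95 to 7.24 in IL10-/- and 7.06 to 7.17 in IL10+/+. IL10-/- replicate 2, where Timd4 was highest, also had the highest myeloid level and read 8.20 for Lyz2, which encodes lysozyme, against 6.70 to 7.21 in the other IL10-/- arrays and 7.07 to 7.27 in IL10+/+. Ctsb, a cathepsin gene of the same list, read lowest there, 9.27, against 10.17 to 10.40 in the other IL10-/- arrays and 9.99 to 10.64 in IL10+/+. Of 16 B cell genes 6 were measured, at 6.93 to 7.31 in IL10-/-, where replicate 2 was again the highest, and 6.81 to 7.00 in IL10+/+. All 6 were positive, with a median difference of 0.14. Of 12 dendritic cell genes only Batf3 was measured, and of 12 mast cell and granulocyte genes 7 were, at 6.33 to 6.87 in IL10-/- and 6.58 to 7.06 in IL10+/+. Of these 7, 6 were negative, with a median of -0.17, while the median was 0.01 for the myeloid list and 0.10 for the NK and CD8 list. None of these marker genes passed the test, and their part in the TIM values was not tested.

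The direction read for Havcr2 did not rest on 1 array or 1 setting. Leaving out each array in turn gave differences between 0.70, without IL10+/+ replicate 4, and 1.15, without IL10+/+ replicate 2. With IL10-/- replicate 2 and IL10+/+ replicate 4 both left out it was 0.81 (SE 0.28). Weighting the arrays by their consistency gave 0.95 (SE 0.23), with an adjusted p of 0.332 by limma, in which IL10+/+ replicate 2 had a weight of 0.712. Under none of the 17 alternatives that gave a value did Havcr2 pass the adjusted threshold.

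**Figure D5:**
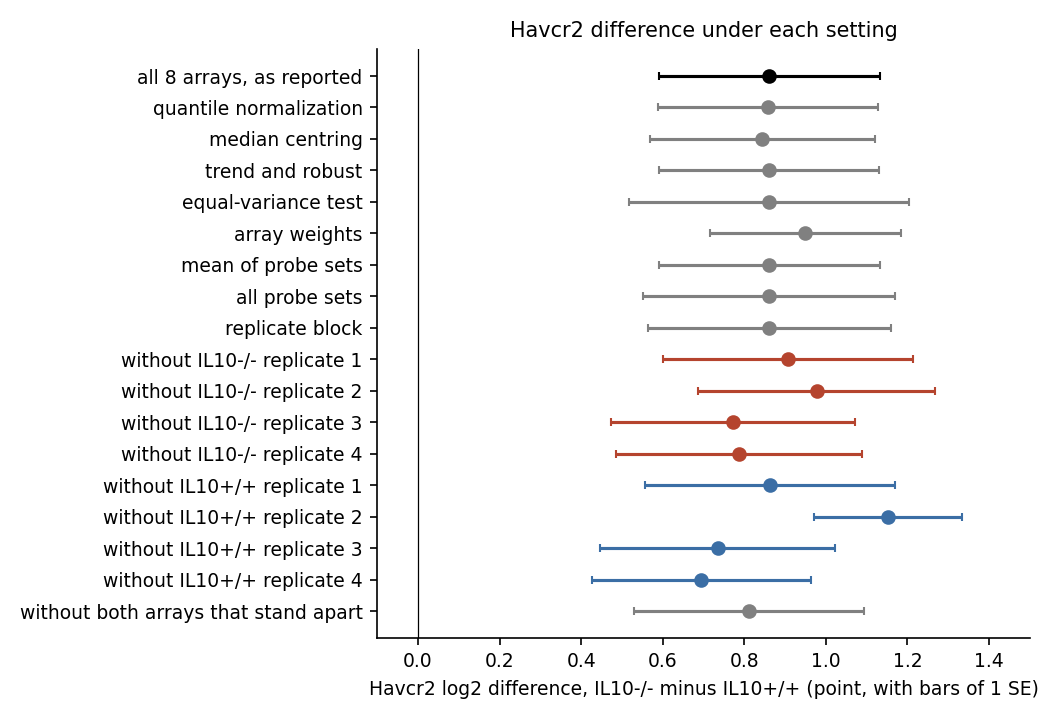
Havcr2 log2 difference, IL10-/- minus IL10+/+, with bars of 1 SE (horizontal axis), for all 8 arrays (black), under other processing (grey) and without each IL10-/- array (red) or IL10+/+ array (blue). The estimates lie between 0.70 and 1.15.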

How the data were processed

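Affymetrix Mouse Gene 2.0 ST arrays were hybridised with amplified RNA. The deposited log2 values were made by the authors in Partek Genomics Suite (RMA background correction, correction for GC content, mean over the probes of a set), as the series' design text states; Affymetrix Expression Console is also named in the submitters' processing notes. Neither versions nor a genome build were given in the sources used. Of 16378 probe sets, 7358 carried 1 gene symbol (456 several, 8564 none), of which 7310 were updated through RefSeq (GRCm38.p6), used otherwise for gene order. The brightest probe set per gene was kept, giving 6986 genes.

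Groups were compared with limma 3.58.1 in R 4.3.3 (lmFit, eBayes; Benjamini-Hochberg over all genes, threshold 0.05), tested on simulated data, and with exact permutation tests in scipy 1.17.1. The 8 arrays limit the precision. Same-numbered arrays did not deviate together (r = 0.05, -0.32, 0.03 and -0.19), so the numbers were not taken as pairs. Members and lists were chosen with earlier results of these data known. Genes named were the 4 members, up to 3 genes of smallest p per list and the 5 most like Havcr2, among named genes at or above the median level; others were chosen after their values were seen. Promoter sequence was taken from RefSeq, which held all 4 genes.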

Additional observations from a re-analysis of the deposited data

Results flagged for a closer look

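Havcr1 in IL10-/- replicate 2, at 5.35, lay far above the other 3 arrays of its group, which read 4.89 to 4.96. The gap to the nearest of them was 0.845 of the group's range, above Dixon's critical value for 4 samples. It was the only such value in 8 groups of 4 arrays, and chance marks about 1 group in 20. That array had the narrowest interquartile range (2.15), and its dimmest 25% of genes read high by 0.08.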

How the results depend on the processing

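All 4 TIM genes kept their direction and stayed above the adjusted threshold under the 17 alternatives that gave a value. Some of these could not change the direction, because they leave the estimate of a TIM gene as it is. They are the trend and robust settings, the equal-variance test, the mean of probe sets, all probe sets and the replicate block. Havcr2 ranged from 0.70 to 1.15, Havcr1 from -0.34 to -0.18, Timd2 from 0.01 to 0.10 and Timd4 from -0.15 to -0.02. When only genes above the median level were fitted, no TIM gene was left. The 2 genes past the threshold became 1 with median centring, the equal-variance test, array weights, all probe sets, the replicate block, or without both arrays that stood apart, and 3 with trend and robust settings; leaving out 1 array gave 1 to 4. With the replicate block Havcr2 differed by 0.86 (SE 0.30, adjusted p = 0.999 by limma), and no TIM gene changed its call. The dim signals of Havcr1 and Timd2 limit what these arrays can show for them.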
